A study of Macaca mulatta with 4 samples.

Results

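The genes described here encode proteins of the mitochondrial ribosome, and were taken as every row of the deposited count table whose symbol begins with MRPL or MRPS followed by a digit. This gave 70 of the 35395 gene rows, 44 named for the large subunit and 26 for the small one. Of 79 symbols listed with a place in the ribosome, 10 matched no row, so the set does not cover the whole ribosome. Neither MRPL12 nor MRPL58 had a row. With at least 10 reads in at least 2 of the 4 libraries, 68 rows were kept, 44 large and 24 small. All 68 had at least 10 reads in every library and all 68 entered the test. The 2 rows left out were MRPS34, which had 0 reads in each library, and a second row named MRPS33, with 7, 24, 5 and 4 reads. Among the rows kept, MRPL53 had the fewest reads over the 4 libraries together, with 34, 26, 26 and 20. In the control libraries MRPL50 had fewer, with 27 and 19. Wherever 4 values are listed for a gene, they stand in the order control female, control male, sevoflurane female and sevoflurane male.

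The libraries were made from the amygdala of wild-type rhesus macaques, a set of nuclei in the temporal lobe. The 2 control libraries came from 1 female and 1 male, and the 2 sevoflurane libraries likewise. Sevoflurane, a halogenated ether used as an inhaled anaesthetic, was breathed at about 2.5 to 3% for 4 hours at about postnatal days 7, 21 and 35. Tissue was collected straight after the third exposure. The labels do not say what the control animals breathed, how they were handled or how old they were. That the libraries of a group are from different animals follows only from their sex labels, so the p-values below measure the spread between these libraries.

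Mitochondria carry their own ribosomes, which translate the few proteins encoded by mitochondrial DNA, all of them subunits of the respiratory chain or of ATP synthase. The ribosomal RNA is transcribed from mitochondrial DNA, while every ribosomal protein is encoded in the nucleus, made in the cytosol and imported. The small subunit binds the messenger RNA and decodes it, and the large subunit joins amino acids and releases the growing chain through an exit tunnel. Some of these proteins have counterparts in bacterial ribosomes and others were added in the mitochondrial lineage. Neurons depend heavily on respiration, and inherited defects of several of these genes cause combined deficiency of respiratory complexes.

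Reads on genes ranged from 12477047 to 16293371 per library. Markers of neurons, excitatory and inhibitory neurons, astrocytes and oligodendrocytes were found in all libraries, with no marker at 0 reads. Some moved with condition: the astrocyte marker GFAP was at 2317, 2337, 254 and 552 CPM and was called lower, the neuronal marker SYT1 at 36.2, 7.37, 841 and 815 CPM and was called higher, and RBFOX3, also neuronal, was called lower. Of the remaining markers of these 5 cell types none was called by edgeR. The summed oligodendrocyte markers differed between the controls, at 1219 and 5560 CPM, and stood at 2604 and 3436 CPM after sevoflurane. Red blood cell markers summed to 7.11 and 28.7 CPM in controls and to 1.14 and 0.824 CPM after sevoflurane, and 1 of 3 was called lower. In the control male library the choroid plexus markers, TTR above all, summed to 18049 CPM (read counts scaled to a common library total, with TMM factors between libraries), against 14.4 to 38.7 CPM in the other libraries. Of the 9 choroid plexus markers with a gene ID, 2 were at 0 in the control female, 1 in the sevoflurane female and 2 in the male exposed to sevoflurane. Among the 7 that were tested, 2 were called lower after sevoflurane. These were KCNJ13, at 0.979, 32.3, 0 and 0 CPM, and SOSTDC1, at 12.2, 34.6, 4.11 and 4.40 CPM, both highest in the control male. The 3 microglial markers were all called lower after sevoflurane, with sums of 212 to 227 CPM in controls and 69.9 to 83.3 CPM in sevoflurane libraries. The part of these cells in the results below was not tested. In bulk tissue, fewer cells of a type and less RNA per cell cannot be told apart. A difference between the groups in tissue handling, RNA quality or library preparation cannot be told apart from sevoflurane either.

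The main comparison asked how the transcripts of the mitochondrial ribosome differed between sevoflurane and control libraries. Of the 68 genes, 43 fell, 1 rose and 24 were not called (edgeR's quasi-likelihood test, Benjamini-Hochberg adjusted p under 0.05 over all 15417 genes tested). Over all genes tested, 19.4% were called lower and 21.3% higher. The median log2 fold change of the 68 genes was −1.20, a level 2.30 times lower after sevoflurane, beside 0.0040 over all genes. The falls that were called ran from −0.88 to −3.11, and 13 of them exceeded 4-fold. Without the control male library 27 fell and the median was −1.19. Leaving out the control female gave 39 that fell, the sevoflurane female 30 and the sevoflurane male 34. Over all genes 13.4% were called lower without the control male, and 17.2%, 14.3% and 9.32% in the other fits, in that order.

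Seen in the libraries one by one, the genes together took 0.467% of all reads in the female control and 0.527% in the male control library. After sevoflurane they took 0.248% of reads in the female and 0.270% in the male. Thus both control libraries stood above both sevoflurane libraries. The same held for 53 of the 68 genes taken singly, while 3 were higher in both sevoflurane libraries and 12 overlapped between the groups. Over all genes tested, 37.3% had groups that did not overlap with sevoflurane lower, and 37.7% with sevoflurane higher.

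**Figure D1:**
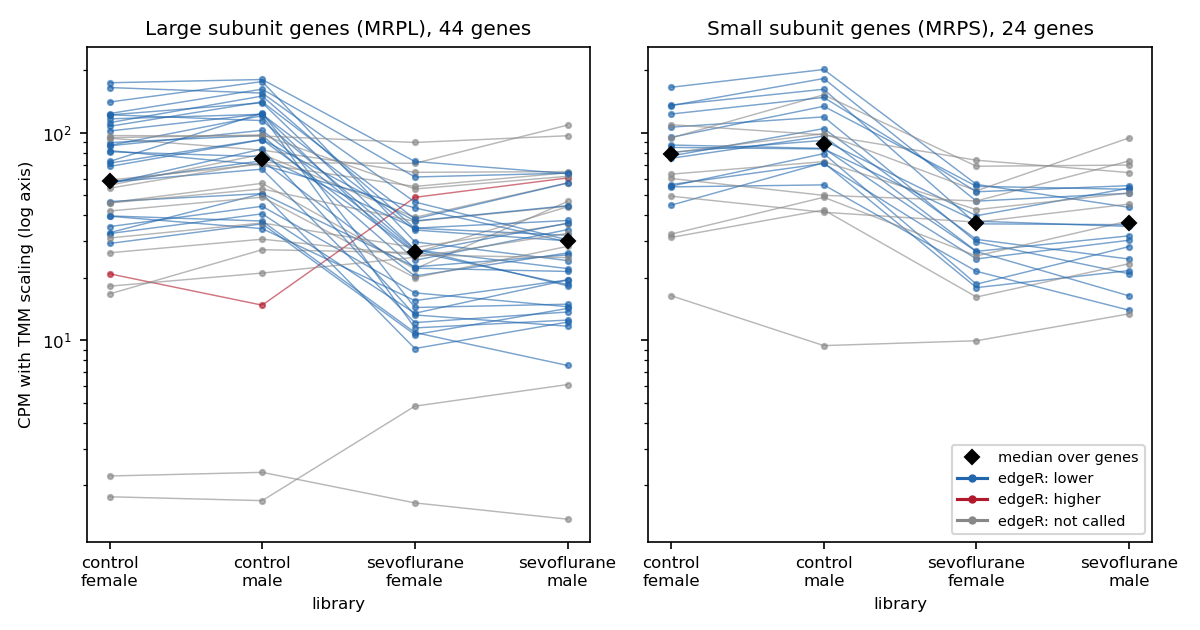
Level of each mitochondrial ribosomal protein gene in the 4 libraries, in CPM with TMM scaling on a log axis, for the large subunit (left, 44 genes) and the small subunit (right, 24 genes). Each thin line joins the values of 1 gene and is coloured by its edgeR call, and diamonds mark the median over genes, which was 58.4 and 74.8 CPM in the control and 26.6 and 29.9 CPM in the sevoflurane libraries for the large subunit, and 78.5, 87.8, 36.7 and 36.8 CPM for the small one.

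Of the 44 large subunit genes 28 fell and 1 rose, and their median log2 fold change was −1.17. Of the 24 small subunit genes 15 fell and 0 rose, with a median of −1.21. The shares that fell were 63.6% and 62.5%, and their difference was not tested. The difference of the medians, large minus small, was 0.039, and it turned to −0.059 without the control male library, so it has no stable sign. In that fit 17 large and 10 small subunit genes fell. No small subunit gene rose by edgeR, at an unadjusted p under 0.05 (0 genes) or with DESeq2 (0). Over all 15417 genes tested, 4028 were higher at an unadjusted p under 0.05 and 3597 with DESeq2.

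The balance of reads between the subunits does not depend on the scaling between libraries. Large subunit genes held 61.5% of the mitochondrial ribosomal protein reads in the control female library (95% Wilson interval 61.2 to 61.9%) and 60.7% in the control male (60.3 to 61.1%). They held 60.5% in the sevoflurane female (60.0 to 61.0%) and 60.8% in the sevoflurane male library (60.3 to 61.3%). The groups overlapped, since the control male value lay between the sevoflurane values. These intervals cover counting error only. The total over both subunits was 76067 and 65735 reads in the control libraries and 35729 and 36719 in the sevoflurane libraries.

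The symbols do not match the structure in every case. MRPS18A and MRPS30 bear small subunit names, yet in the solved ribosome both sit in the large subunit. With these 2 genes moved, 29 of 46 large and 14 of 22 small subunit genes fell, and the medians were −1.17 and −1.21. MRPS30 was at 60.1, 49.8, 46.8 and 72.9 CPM, so the groups overlapped and it was not called (log2 fold change 0.12 ± 0.31 SE, adjusted p = 0.774).

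Genes named in the unified nomenclature after a bacterial ribosomal protein were set against those given a mitochondrial name. Of 39 with a bacterial counterpart, 30 fell and 1 rose (median log2 fold change −1.34). Of 29 mitochondria-specific ones, 13 fell and 0 rose, with a median of −0.74. In the large subunit 19 of 26 genes with a counterpart fell against 10 of 20 mitochondria-specific ones. In the small subunit the counts were 11 of 13 against 3 of 9. Without the control male library they were 18 and 9 over both subunits. The median levels of the classes in controls were 72.5 and 79.1 CPM for genes with a counterpart and 63.0 and 83.3 CPM for mitochondria-specific ones. Of the latter, 1 was higher at an unadjusted p under 0.05 and 1 was called higher by DESeq2, MRPL50 in both cases. Over all 15417 genes tested these counts were 4028 and 3597. The difference between the classes was not tested.

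**Figure D2:**
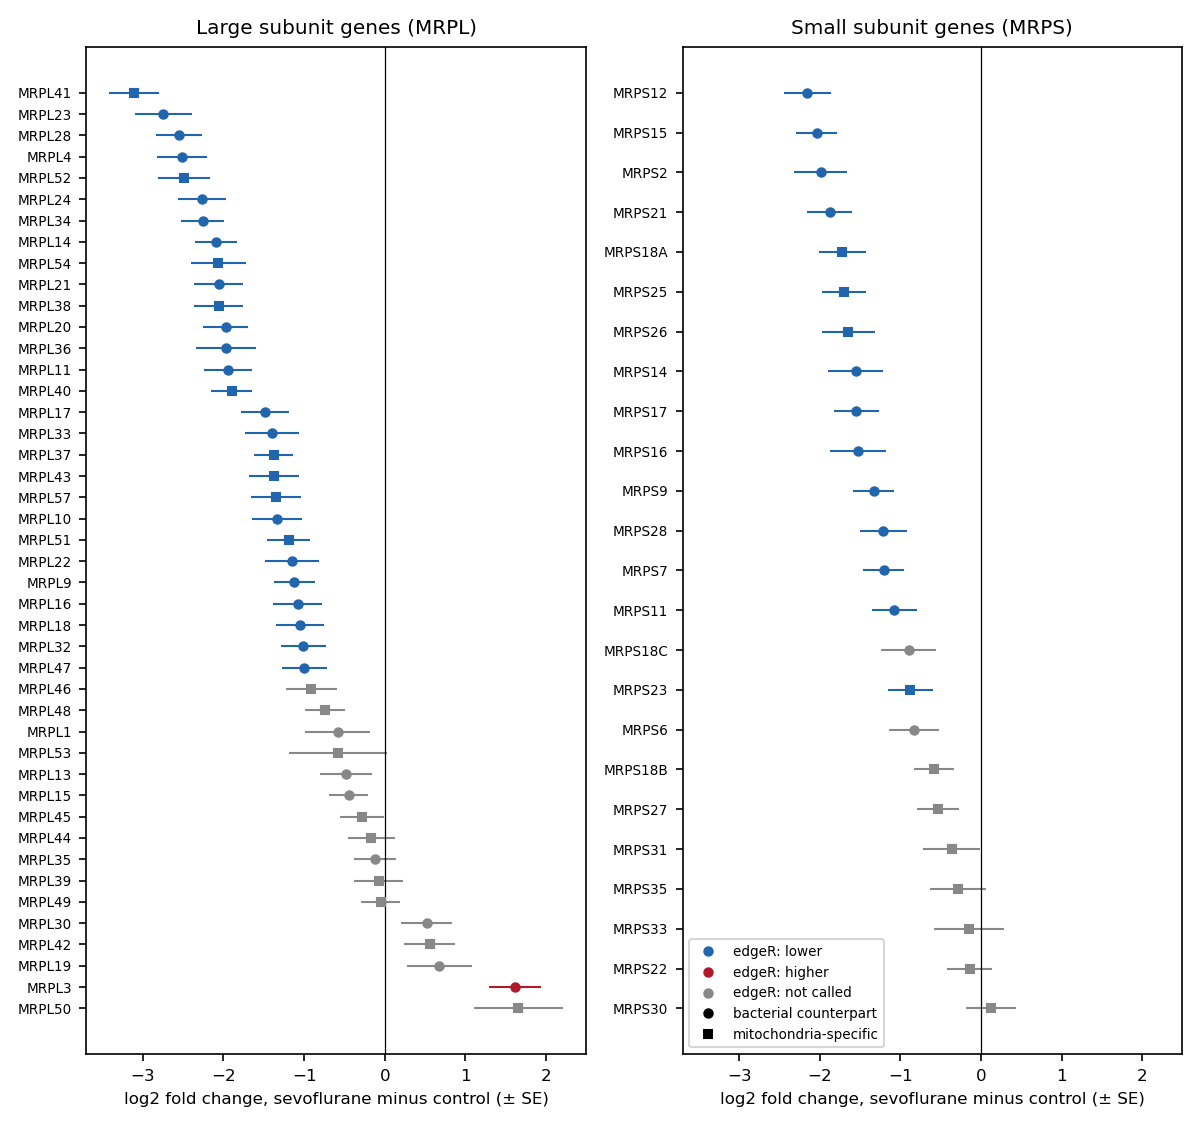
Log2 fold change, sevoflurane minus control, with its SE, for each of the 44 large subunit genes (left) and 24 small subunit genes (right), ordered by size. Circles mark genes with a bacterial counterpart, squares mitochondria-specific ones, and colours the edgeR calls; 62 of the 68 values lie below 0, and MRPL3 is the one gene called higher.

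The largest fall was that of MRPL41 (ENSMMUG00000039736), a mitochondria-specific protein of the large subunit also known as a binding partner of BCL2. It stood at 86.7, 121, 11.5 and 12.5 CPM. Both sevoflurane libraries lay far below both controls, and the log2 fold change was −3.11 ± 0.31 SE (edgeR adjusted p = 0.00193, with a fall in each sex). Among all members it was also the gene with the largest fall in each sex taken alone, −2.92 in females and −3.27 in males.

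Several further genes were taken for the size of their fall, not as a list of any one site on the ribosome. MRPL23 (ENSMMUG00000031268), at the rim of the exit tunnel, stood at 72.5, 124, 14.4 and 14.9 CPM, and fell by 2.75 ± 0.35 (log2; adjusted p = 0.00307, edgeR). The control values differed more from each other than the sevoflurane values did, and the groups did not overlap. MRPL24, its neighbour at the rim, stood at 57.7, 66.6, 12.2 and 13.7 CPM and fell by 2.27 ± 0.29 on the log2 scale. MRPL4, whose loop reaches into the tunnel wall, stood at 122, 139, 27.4 and 18.3 CPM and fell by 2.51 ± 0.31. MRPL45, which tethers the exit to the inner membrane, was chosen after its values were seen and was not called, at 45.8, 53.5, 37.3 and 44.2 CPM (−0.28 ± 0.27, adjusted p = 0.435). No count over all tunnel proteins was made.

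Other large subunit genes fell by more than 4-fold. MRPL28, the counterpart of bacterial L28, stood at 140.3, 176, 29.8 and 24.2 CPM and fell by 2.55 ± 0.28. MRPL34, a short protein with a bacterial counterpart, stood at 122, 114, 27.2 and 22.1 CPM and fell by 2.26 ± 0.27. MRPL14, at the interface with the small subunit, stood at 89.4, 96.9, 22.2 and 21.4 CPM and fell by 2.09 ± 0.26. In these 3 genes the libraries of each group lay close together and far from the other group. The mitochondria-specific genes MRPL52 and MRPL54 fell by 2.49 ± 0.33 and 2.06 ± 0.34, and MRPL54 was the lowest of this set after sevoflurane, at 10.9 and 7.56 CPM.

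The stalk of the large subunit recruits elongation factors. MRPL11, at the base of the stalk, stood at 102, 123, 24.2 and 34.1 CPM (log2 fold change −1.945 ± 0.30). MRPL10, which anchors the stalk, stood at 35.2, 44.1, 16.9 and 14.5 CPM (−1.34 ± 0.31, edgeR adjusted p = 0.0169). The groups did not overlap for either gene. The call of MRPL10 was lost without the control male (adjusted p = 0.0629) or the sevoflurane male library (0.0730). MRPL12, the stalk protein itself, was matched to no row and is not analysed here.

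The one member that rose was MRPL3 (ENSMMUG00000000220), a large subunit protein that reaches towards the peptidyl transferase centre, where peptide bonds form. It stood at 20.9, 14.7, 48.7 and 60.4 CPM, higher in both sevoflurane libraries than in either control. The log2 fold change was 1.61 ± 0.32 (edgeR adjusted p = 0.0108, higher in both sexes), and the call was lost without the sevoflurane male library (1.45, adjusted p = 0.0513). MRPL50, one of the 2 scarcest members, had 27, 19, 76 and 89 reads. Its log2 fold change of 1.66 ± 0.55 was as large, but it was not called (adjusted p = 0.0531). It was called with DESeq2 (adjusted p = 0.0434), with library totals and with sex as a term. It was also called with a filter at 5 CPM, which it passed only through the sevoflurane libraries, so that call adds no support.

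A further 3 large subunit genes, chosen after their values were seen, were above 0 without a call. MRPL19 stood at 16.7, 27.3, 26.4 and 43.9 CPM (0.68 ± 0.40), MRPL42 at 18.2, 21.1, 25.1 and 32.7 CPM (0.56 ± 0.32) and MRPL30 at 53.9, 71.6, 71.1 and 109 CPM (0.52 ± 0.32). Of these, only MRPL42 had groups that did not overlap. MRPL44, which has the fold of an RNA-cutting enzyme, stood at 26.4, 30.6, 25.7 and 25 CPM and was not called (−0.17 ± 0.29, adjusted p = 0.668). Its sign turned to 0.066 with library totals.

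In the small subunit the largest fall was that of MRPS12 (ENSMMUG00000060269), the counterpart of the bacterial protein that guards accuracy at the decoding centre. It stood at 106, 119, 29.8 and 20.9 CPM, and fell by 2.15 ± 0.295 in log2 terms (adjusted p = 0.00361 by edgeR, with a fall in each sex). MRPS21, which took the most reads of the small subunit genes in both control libraries but not in the sevoflurane libraries, was at 165, 201, 56.3 and 43.6 CPM, and fell by 1.87 ± 0.28. MRPL37, which took the most of the large subunit in both controls but not after sevoflurane, stood at 174, 180.1, 72.5 and 63.4 CPM and fell by 1.38 ± 0.25. Read numbers also grow with transcript length, which was not available, so these are no ranking of transcript copies.

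MRPS22, mutated in an infantile mitochondrial disease, was not called, at 49.4, 41.3, 37.0 and 45.3 CPM (−0.14 ± 0.28, adjusted p = 0.715). Its values overlapped between the groups. MRPS33, at 16.4, 9.42, 9.94 and 13.4 CPM, overlapped as well (−0.15 ± 0.44, adjusted p = 0.809).

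The ribosome has 3 related proteins of the S18 family, encoded by MRPS18A, MRPS18B and MRPS18C, which occupy different places. MRPS18C holds the place of bacterial S18, MRPS18B a mitochondria-specific place in the small subunit, and MRPS18A a place in the large one. MRPS18A stood at 77.1, 104, 30.6 and 24.6 CPM and fell by 1.72 ± 0.30 (edgeR adjusted p = 0.00664). MRPS18B stood at 109, 97.4, 73.6 and 64.1 CPM and was not called (−0.58 ± 0.25, adjusted p = 0.103). MRPS18C stood at 31.2, 42.4, 16.1 and 23.4 CPM and was not called (−0.90 ± 0.34, adjusted p = 0.0791), though it was with sex as a term (adjusted p = 0.0384). In all 3 genes both sevoflurane libraries lay below both controls. Whether their changes differ was not tested.

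Changes were also taken within each sex. In all 43 called falls the groups did not overlap, so a fall in both sexes follows from that and adds no support. The same holds for the single genes described in this report as falling or rising in each sex. Of the 68 genes, 59 were lower after sevoflurane in both sexes, beside 42.0% of all genes tested. The median change was −1.21 in females and −1.27 in males. Across the 68 genes the change in females correlated with that in males at r = 0.943 (Spearman's rho = 0.934), a description across genes, which are not independent replicates. The correlation was not computed over all genes tested, so it does not show an agreement particular to these genes. Both changes rest on 1 library pair each and share no library. The change was more negative in males for 38 of the 68 genes.

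**Figure D3:**
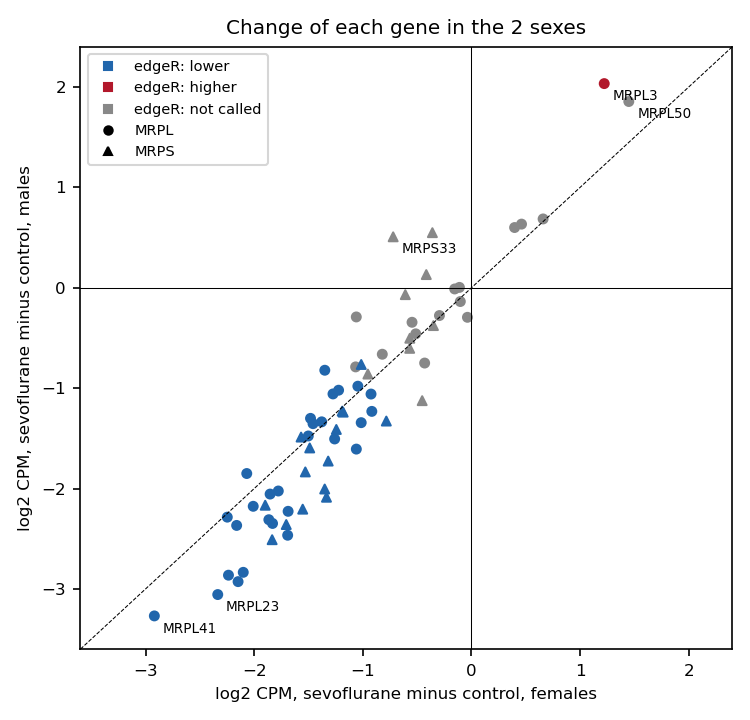
Change of each of the 68 genes in females (x axis) and in males (y axis), as log2 CPM of the sevoflurane minus that of the control library of the same sex. Circles are large and triangles small subunit genes, colours give the edgeR calls, and the dashed line marks equal change; 64 genes have the same sign in both sexes and 4 have opposite signs.

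Between males and females, with condition as a second term, 0 of the 68 genes were called by edgeR and 0 by DESeq2. Over all genes tested, edgeR called 1.84% and DESeq2 2.19%. At an unadjusted p under 0.05 edgeR gave 1 gene, MRPL1, beside 10.9% of all genes, and DESeq2 gave 0, beside 9.18%. The log2 differences, male minus female, ran from −0.39 to 0.72 with a median of 0.19. This fit has 1 residual degree of freedom.

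The ribosome also holds proteins whose symbols do not follow the MRPL and MRPS pattern. Of 5 such genes 4 fell and 0 rose by edgeR, with a median log2 fold change of −1.38. None was higher at an unadjusted p under 0.05 or by DESeq2 (0 genes each, beside 4028 and 3597 over all 15417 genes tested). AURKAIP1, a small subunit protein, stood at 113, 158, 13.3 and 9.00 CPM and fell by 3.60 ± 0.35 (edgeR adjusted p = 0.00187, with a fall in each sex). GADD45GIP1, a large subunit protein near the tunnel exit, stood at 112, 123, 12.7 and 8.79 CPM and fell by 3.45 ± 0.31. Both point estimates lay below that of MRPL41, a difference that was not tested. CHCHD1, a small subunit protein with a twin cysteine motif, fell by 1.38 ± 0.29. DAP3, a GTP-binding small subunit protein, fell by 1.01 ± 0.28 (adjusted p = 0.0287), and lost its call without the control female, the control male or the sevoflurane female library and with library totals (adjusted p = 0.0569, 0.124, 0.0973 and 0.0600). PTCD3, an RNA-binding small subunit protein, was not called, at 85.1, 76.4, 103 and 122 CPM (0.48 ± 0.25, adjusted p = 0.168). KGD4, formerly named MRPS36 and now known as a component of the 2-oxoglutarate dehydrogenase complex, was not called (−0.25 ± 0.31, adjusted p = 0.539).

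Lists of factors that act with the ribosome were tested in the same fit. Of 16 translation factors 4 fell (25%), 2 rose (12.5%) and 10 were not called, with a median of 0.28, beside 19.4% lower and 21.3% higher over all genes, so the share that fell is near the background. TUFM, the elongation factor that brings charged tRNA, stood at 292, 352, 109 and 127 CPM and fell by 1.45 ± 0.26 (edgeR adjusted p = 0.00748). SLIRP and LRPPRC form a complex that stabilises mitochondrial messenger RNAs. SLIRP stood at 116, 177, 23.7 and 21 CPM and fell by 2.71 ± 0.31. LRPPRC, chosen after its values were seen, stood at 150.4, 192, 315 and 475 CPM and rose by 1.21 ± 0.31 (adjusted p = 0.0234), a call lost without the control female or the sevoflurane male library (adjusted p = 0.0847 and 0.0880). The 2 partners were thus called in opposite directions. GFM2, a ribosome recycling factor, rose by 1.13 ± 0.32, TACO1, needed to translate COX1, fell by 1.20 ± 0.28 and OXA1L, which inserts new proteins into the inner membrane, fell by 0.77 ± 0.25. These 3, chosen after their values were seen, lost their calls without the control male library and without either sevoflurane library, and OXA1L also without the control female, with RLE size factors, with library totals and with no filter. Without the sevoflurane male library 0 translation factors rose, and 1 rose when any of the remaining libraries was left out. Without the control male or the sevoflurane female library 2 fell.

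Of 20 assembly factors with a row, 7 fell (35%), 2 rose (10%) and 11 were not called, with a median of −0.49. Over all genes 19.4% were called lower and 21.3% higher, and the difference from these shares was not tested. MALSU1, which holds the immature large subunit apart from the small one, stood at 51.4, 65.4, 16.5 and 14.5 CPM and fell by 1.91 ± 0.30. GTPBP10, a GTPase of large subunit maturation, had 15, 25, 210 and 240 reads and rose by 3.23 ± 0.57 (edgeR adjusted p = 0.00721), or 3.89 without the control male library. METTL15, a small subunit RNA methyltransferase chosen after its values were seen, rose by 1.62 ± 0.38, a call lost without the control male or the sevoflurane male library (adjusted p = 0.0570 and 0.104). Without the sevoflurane male library 3 assembly factors fell. Of 20 genes for mitochondrial aminoacyl-tRNA synthetases and the related amidotransferase, which charge tRNAs, 2 fell (10%), 1 rose and 17 were not called, with a median of −0.20, shares below those over all genes. The 2 that fell were SARS2 (−1.62 ± 0.34) and FARS2 (−1.48 ± 0.35). SARS2 lost its call without the sevoflurane male library, and FARS2 without the control male or the sevoflurane female library. The one that rose, chosen after its values were seen, was IARS2 (1.14 ± 0.26), which lost its call without the control female, the control male or the sevoflurane male library.

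**Figure D4:**
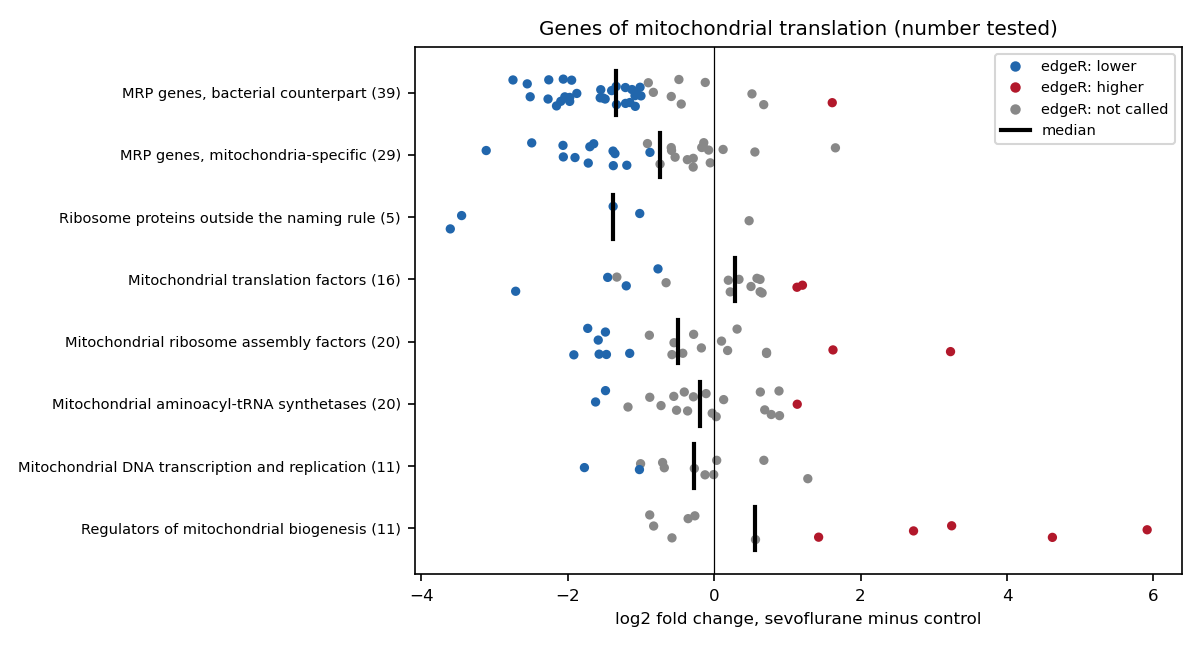
Log2 fold change, sevoflurane minus control, of each tested gene in the 2 classes of mitochondrial ribosomal protein gene and in 6 related lists, with the number tested in brackets. Points are genes coloured by edgeR call and black bars are medians, which run from −1.38 for ribosome proteins outside the naming rule to 0.57 for regulators of mitochondrial biogenesis.

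Genes of 2 related complexes were measured in the same fit. Of 77 cytosolic ribosomal protein genes 68 fell and 0 rose (median log2 fold change −1.84). At an unadjusted p under 0.05 and by DESeq2 0 were higher, beside 4028 and 3597 over all 15417 genes tested. Of 65 nuclear subunits of the respiratory chain and ATP synthase, whose partners the mitochondrial ribosome makes, 52 fell and 1, NDUFS1, rose, with a median of −1.63. Mitochondrial ribosomal protein genes fell in 63.2% of cases, cytosolic ones in 88.3% and respiratory subunits in 80.0%. These shares are descriptions of the same 4 libraries, and the differences between them were not tested.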

How the data were processed

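The authors deposited raw read counts per gene, 1 column per library, with 35395 rows named by Ensembl ID. HISAT2 was the aligner, per the submitters' processing notes. The sources used here do not give its version, the counter, the build, the strand setting or the library selection. A table of gene IDs named 24173 rows. Totals were 16293371, 12477047, 14413858 and 13615927 reads.

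Counts were filtered with filterByExpr (minimum count 10), which left 15417 genes, scaled with TMM and tested with edgeR 4.0.16 (R 4.3.3), condition being the only term (2 residual degrees of freedom). The sex comparison had condition and sex as terms. SEs were derived from the F statistic. The script was run on simulated counts as a check of the code. Their setting was simpler than these data, so that run does not test the results given here. Alternatives were RLE size factors, library totals, DESeq2 1.42.0, other filters, a sex term and leaving out each library. With library totals the median log2 fold change of all genes was 0.24, so changes are relative to TMM.

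Named genes were the 10 called members of largest fall, those that rose, members of set roles, the 2 with most and the 2 with fewest reads, all ribosome proteins outside the naming pattern, and the 2 largest called changes of each other list. Members, lists and rules were chosen with earlier results of these data known. By RefSeq's T2T-MMU8v2.0 annotation, 20 of the 68 genes overlap another protein-coding gene, and their counts are uncertain. Of these 12 fell, as did 31 of the other 48. No sequences or lengths were used.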

Additional observations from a re-analysis of the deposited data

Results flagged for a closer look

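Named genes whose change after sevoflurane had opposite signs in the 2 sexes are given here. MRPS30 changed by −0.36 (log2 CPM) in females and by 0.55 in males, MRPS33 by −0.72 and 0.51, MRPS22 by −0.42 and 0.13, and KGD4 by −0.68 and 0.11. Each value rests on 1 library against 1, the difference between the sexes was not tested, and none of these genes was called between conditions.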

How the results depend on the processing

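The count of mitochondrial ribosomal protein genes that fell was 37 to 47 under every change of scaling, tool, filter or terms, and 27 to 39 with 1 library left out, in fits that kept 28 to 39 of the 44 calls. Depth limits MRPL50 and MRPL53 most, with under 100 reads in each library. With 1 library left out a group has 1 sample, which is assumed to vary like the other group. Each condition held 1 female and 1 male, so the fit with sex as a second term is the one paired by sex, with 1 residual degree of freedom. In it 47 members fell and 2 rose. With DESeq2 45 members fell, and over all genes it called 3430 lower and 3597 higher. In the main fit these counts over all genes were 2996 and 3282. For the other changes of scaling, filter or terms no counts over all genes are given here. With library totals the TMM factors are left out, which raises the log2 fold changes. These factors were 0.942 and 0.904 in the control and 1.10 and 1.07 in the sevoflurane libraries. The cause of the other shifts below was not tested.

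With library totals, DESeq2, the 5 CPM filter or sex as a term, 2 members rose, both of the large subunit, and 1 of them was mitochondria-specific. In these 4 settings 2 respiratory chain genes rose, as also with RLE size factors and with no filter. With library totals 4 translation factors, 4 synthetases and 2 mitochondrial DNA genes rose, and 1 mitochondrial DNA gene fell. In that setting the median log2 fold change of all genes was 0.24, beside 0.0040 in the main fit. These counts are therefore no result about these lists. With DESeq2 2 synthetases rose, and 1 mitochondrial DNA gene rose with DESeq2, the 5 CPM filter or sex as a term. With the 5 CPM filter 3 biogenesis regulators rose, while ESRRG and PPARGC1B reached 5 CPM in only 1 library and left the test. That filter left 67 of the 68 members in the test, and MRPL50 passed it only through the sevoflurane libraries. The median log2 fold change with library totals was −0.97 over all members, −0.94 for the large and −0.98 for the small subunit. The large subunit median was −1.15 with no filter and −1.19 with the 5 CPM filter. With library totals 6 of the 68 members changed sign. Among the named genes, those of MRPL44 (0.066), MRPS22 (0.087) and MRPS33 (0.075) turned.

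With 1 library left out, 0 to 1 members rose, and 17 to 24 of the large subunit and 10 to 15 of the small one fell. Of genes with a bacterial counterpart 18 to 27 fell and 0 to 1 rose, and of mitochondria-specific ones 9 to 12 fell. Among translation factors 2 to 3 fell and 0 to 1 rose, among assembly factors 3 to 7 fell and 1 to 2 rose, and among synthetases 1 to 2 fell and 0 to 1 rose. Of mitochondrial DNA genes 1 to 2 fell. Of biogenesis regulators 0 to 1 fell. Of cytosolic ribosomal protein genes 0 to 1 rose, and of respiratory chain genes 1 to 2. The medians ran from −1.31 to −1.12 over all members and for the large subunit, and from −1.31 to −1.13 for the small one. The large minus small difference ran from −0.059 to 0.048. Over these fits MRPS30 ran from −0.23 to 0.42, MRPS22 from −0.29 to 0.019, MRPS33 from −0.52 to 0.33 and KGD4 from −0.62 to 0.054.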

Other observations

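Among 11 regulators of mitochondrial biogenesis, the nuclear factors that drive genes of the mitochondrion, 5 rose (beside 21.3% of all genes), 0 fell and 6 were not called (edgeR), with a median log2 fold change of 0.57. PPARGC1A, a coactivator of these genes, had 7, 1, 300 and 247 reads and rose by 5.91 ± 0.71 (edgeR adjusted p = 0.00267, higher in both sexes). Without the control female library 1 control read was left, and the ratio was 203 (95% counting interval 36.3 to 8026). Without the control male library the log2 fold change was 5.24. ESRRG, a nuclear receptor of the same network, had 3, 3, 123 and 56 reads. It rose by 4.62 ± 0.77, or 4.03 without the sevoflurane female library. PPARGC1A and ESRRG passed the read filter only through the sevoflurane libraries, so they could hardly have been called lower. Their calls therefore add no support to the comparison with the 21.3% over all genes. NRF1, a factor that binds promoters of respiratory and mitochondrial ribosomal genes, was not called, at 18.4, 18.2, 14.7 and 13.9 CPM (−0.35 ± 0.32, adjusted p = 0.412). GABPA, which acts on many of the same promoters, rose by 3.24 ± 0.46, and YY1 by 1.43 ± 0.26, a call lost without the control male library (adjusted p = 0.0541). GABPA was at 2.82 to 3.74 without any 1 library. PPARGC1B rose by 2.72 ± 0.64, a call lost without the sevoflurane female library (2.23, adjusted p = 0.121). Leaving out the control female library gave 1 regulator that fell, MYC, and leaving out the sevoflurane female gave 1, ESRRA. With all libraries 0 were lower at an unadjusted p under 0.05 or by DESeq2, beside 3882 and 3430 over all 15417 genes tested. All of these but PPARGC1A and ESRRG were chosen after their values were seen.

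Of 11 genes for transcription and replication of mitochondrial DNA, 2 fell (18.2%, near the 19.4% over all genes) and 0 rose by edgeR, with a median of −0.27. At an unadjusted p under 0.05, and by DESeq2, 1 was higher, beside 4028 and 3597 over all 15417 genes tested. POLRMT, the mitochondrial RNA polymerase, stood at 107, 107, 37.8 and 24.7 CPM and fell by 1.77 ± 0.30 (edgeR adjusted p = 0.00652). SSBP1, which coats single-stranded mitochondrial DNA, fell by 1.02 ± 0.31 (adjusted p = 0.0387), a call lost without the control male or the sevoflurane female library and with library totals (adjusted p = 0.167, 0.129 and 0.0776).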
